A study of Mus musculus with 6 samples.

Results

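The 49 genes described here encode the machinery that copies DNA and the enzymes that supply its building blocks. They were chosen by symbol: all 49 have a row among the 22030 genes of the count table, and all 49 passed the filter on low counts, which left 13067 genes. By role they form 8 groups, namely origin recognition (6 genes), helicase loading (8), helicase activation (8), polymerases and primase (9), clamp and clamp loader (6), single-strand binding and lagging-strand joining (5), nucleotide supply (4) and G1/S regulators (3).

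Messenger RNA was sequenced from mBMSCs, the mesenchymal stem cells of mouse bone marrow, which can give rise to bone, cartilage and fat. The knockdown group is 3 libraries titled siRIOK3 with the genotype label RIOK3 knockdown, and the control group is 3 libraries titled siNC with the genotype label WT. The design text speaks of stable lentiviral lines and, once, of a knockout, and the prefix si stands in the titles, so the agent is unsettled. The sources used here do not give strain, age, medium, day of harvest, number of clones or separate cultures, and the p-values here reflect the spread among these libraries alone, which may be technical. The study asked what RIOK3 does in their differentiation towards bone.

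Before S phase the origin recognition complex (ORC), together with CDC6 and CDT1, loads the MCM2-7 helicase onto origins. The kinase CDC7 with its activator DBF4, and cyclin E with its CDK partner, then switch the helicase on through CDC45 and the GINS complex, and DNA polymerases α, δ and ε copy the strands with the sliding clamp PCNA. Many of these genes are known targets of E2F transcription factors, and in proliferating cells their RNA is made mainly around the G1/S transition.

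The libraries held 28327612 to 32569544 counts each, and the smallest count of any of the 49 genes in a library was 21. Riok3 (ENSMUSG00000024404.8), the targeted gene, had 32.1, 31.5 and 37.2 CPM (TMM-scaled counts relative to the library total) in knockdown replicates 1, 2 and 3, against 143, 193 and 135 CPM in control replicates 1, 2 and 3. Its log2 fold change, knockdown over control, was −2.23 (SE 0.178, adjusted p = 0.000127 in edgeR's quasi-likelihood test with Benjamini-Hochberg adjustment). Control replicate 2 stood apart from its group, its Spearman correlation of log2 CPM being 0.963 with control replicate 1 and 0.968 with control replicate 3, which had 0.996 between them. Of 14 mesenchymal stromal markers, 13 reached 1 CPM in at least 1 library, while Lepr stayed under 1 CPM. The 14 summed to 919 to 933 CPM in knockdown libraries and 763 to 980 CPM in control libraries. Itgb1 and Col1a2 gave 412 and 201 CPM of this in control replicate 1, and 243 and 415 CPM in knockdown replicate 1. Thy1 passed 1 CPM in control replicate 1 alone. Of these 13 markers, 6 were called higher and 5 lower. Macrophage markers summed to 46.5 to 51.7 CPM in knockdown and 26.6 to 43.2 CPM in control libraries, nearly all of it Cd68, with the pan-leukocyte marker Ptprc at 0.101 CPM at most. Endothelial markers summed to 8.79 CPM at most, erythroid markers to 0.0311 CPM and lymphoid markers to 0.0719 CPM. Only 1 of 6 erythroid and 1 of 5 lymphoid markers had a row in the count table. Adipocyte markers summed to 1.21 to 1.90 CPM in knockdown against 4.92 to 9.99 CPM in control libraries, nearly all of it Fabp4. The part of these markers in the results was not tested.

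The knockdown libraries had less RNA from 5 of the 6 origin recognition genes, both genes of the CDC7-DBF4 kinase, Pola1 of polymerase α, the primase gene Prim1, the large clamp loader subunit gene Rfc1, all 4 nucleotide supply genes and Ccne2. The abundant genes Mcm3, Gins2 and Gins4 did not pass the test, and Mcm2, Pold1, Pold2 and E2f1 had more RNA. Of the 49 genes, 23 fell and 4 rose (edgeR, adjusted p under 0.05), and 22 did not pass. When a trend with base composition was removed, 9 of the 23 were still called lower and 0 of the 4 higher. The share of all called genes that kept their call was not counted. Among all tested genes, 26.8% fell and 21.1% rose. The median log2 fold change was −0.37 over the 49 genes and 0.014 over all tested genes. Every knockdown library was below every control library for 27 of the 49 genes, where this held for 31.3% of all tested genes, and above for 8, against 30.8%. For the other 14 genes the libraries overlapped. In GENCODE M21, 13 of the 49 genes overlap a protein-coding gene on the other strand, among them Orc2, Orc4, Orc6, Tk1 and Ccne2, and pseudogenes of Pcna and Tyms are annotated. The kit keeps strand, but the sources used here do not say how strand was used in counting, so the counts of these genes are less certain. These are bulk samples, so fewer cells in S phase and less RNA per cell cannot be told apart.

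**Figure D1:**
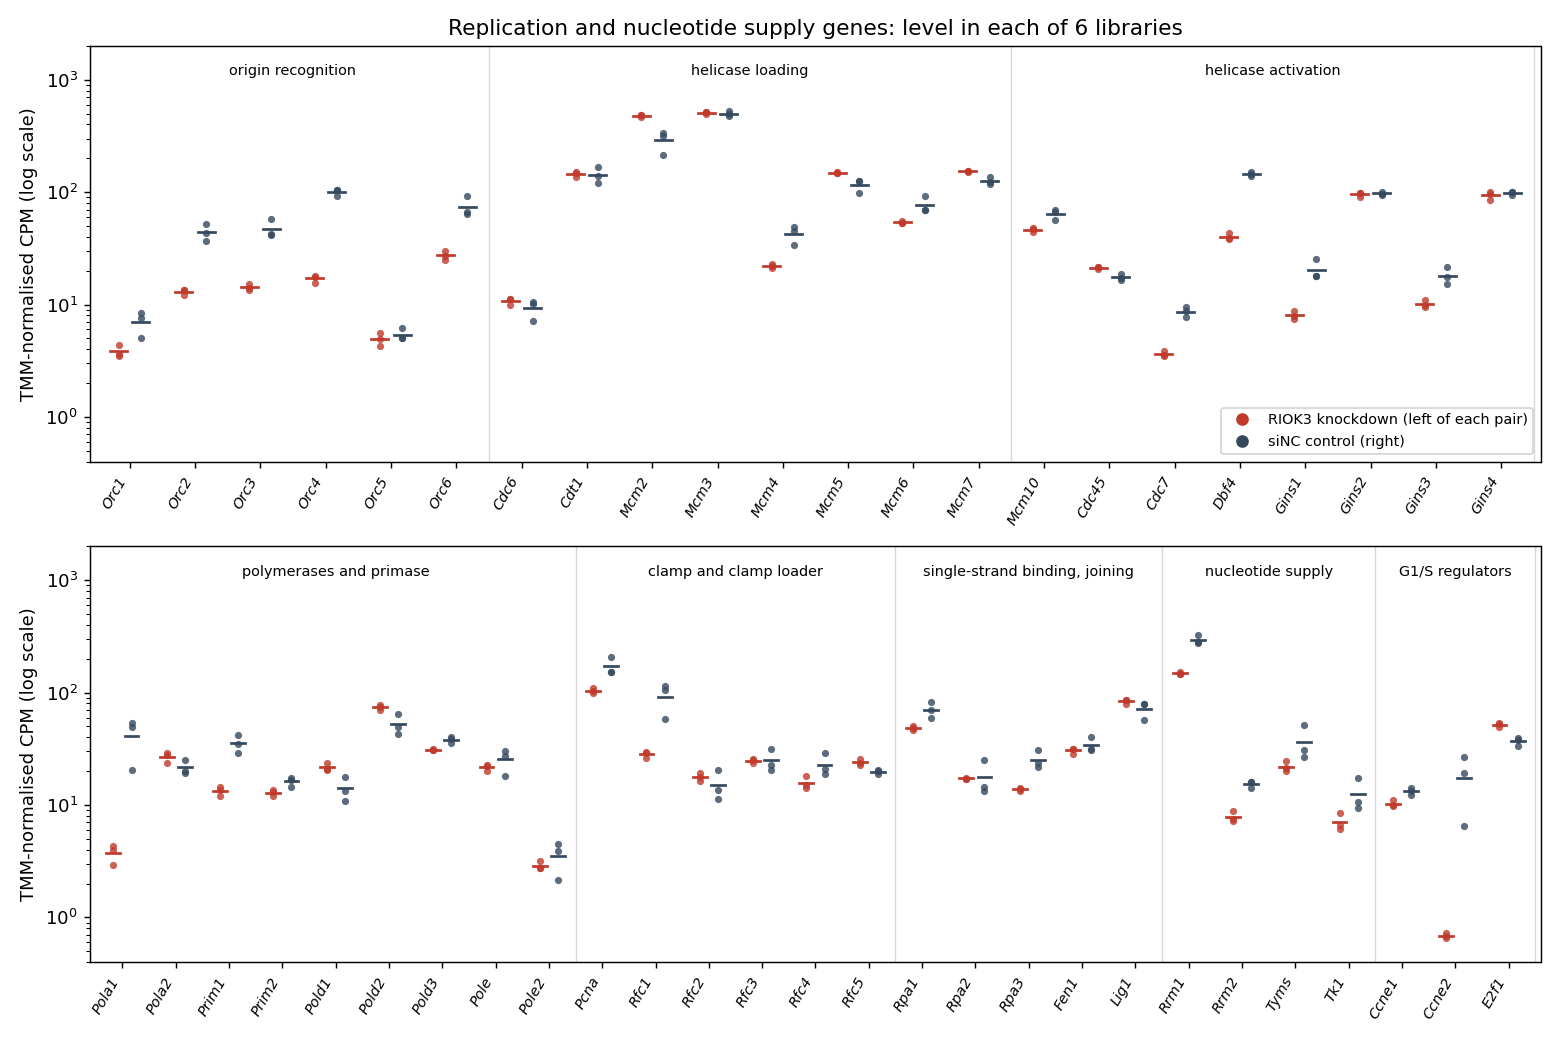
Level of each of the 49 genes in each of the 6 libraries, in TMM-normalised CPM on a log axis, with knockdown libraries to the left of control libraries and a bar at each group's mean. The origin recognition genes other than Orc5 lie lower in knockdown libraries, while Mcm2 lies higher and Mcm3 and Gins4 overlap.

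Fold changes in this series moved with the base composition of transcripts. Relative to the mean of all 6 libraries, log2 CPM rose with GC content by 0.663, 0.657 and 0.565 per 10 points of GC in knockdown replicates 1, 2 and 3, and had slopes of −0.794, −0.449 and −0.641 in control replicates 1, 2 and 3. Because of the centring the groups have opposite signs even where the trend lies in one of them. The main fold changes are therefore also given with this trend removed, called the GC offset, a setting known from earlier work on these data. Under the GC offset 13 of the 49 genes were called lower and 3 higher, where 15.2% and 16.4% of 13043 genes with a known composition were, and the median was −0.22 over the 49 genes and 0.029 over all. Of the 23 genes called lower, 9 were lower in both fits (Orc2, Cdc7, Dbf4, Gins1, Pola1, Rfc1, Rpa1, Tk1 and Ccne2), and of the 4 called higher 0 were. Rpa3 was called in opposite directions. Of 17 alternative settings, all 17 called Orc2, Gins1, Pola1 and Ccne2 lower, and no gene of the set was called higher in all. For all tested genes, neither the share called alike in both fits nor the share called in all 17 settings was counted. Without control replicate 2, and with no offset, 29 of the 49 genes were called lower and 10 higher, where 36.5% and 35.1% of all tested genes were. Leaving out knockdown replicate 1 or knockdown replicate 2 gave 16 lower, where 20.4% and 20.1% of all genes were, and 0 higher, where 12.3% of all genes were in either fit. At an unadjusted p under 0.05 in edgeR, 2 and 3 of the 49 genes were higher in these fits. Of all genes, 2618 of 13389 and 2591 of 13390 were higher at that threshold. Without knockdown replicate 3 the counts were 18 lower and 2 higher, against 21.1% and 13.9% of all genes. Without control replicate 1 they were 20 and 2, against 22.6% and 15.8%, and without control replicate 3 they were 19 and 2, against 23.2% and 16.4%.

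Ccne2, the gene of cyclin E2, and Pola1, that of the catalytic subunit of polymerase α, had the lowest GC content of their roles and the lowest fold changes of the set. E2f1 and Pold1, which rose, had the highest GC content of the same roles. The first 120 coding bases of these 4 genes are shown because they make that difference visible. They come from the GENCODE M21 transcript with the longest coding part, with G and C in capitals. GC content is 48.3% in the stretch shown and 39.8% in the whole coding part for Ccne2, 74.2% and 60.9% for E2f1, 51.7% and 41.9% for Pola1, and 65.0% and 60.7% for Pold1. Each coding start is richer in GC than its whole coding part, and the order of the 4 genes by GC content within each role is the same in both.
Ccne2: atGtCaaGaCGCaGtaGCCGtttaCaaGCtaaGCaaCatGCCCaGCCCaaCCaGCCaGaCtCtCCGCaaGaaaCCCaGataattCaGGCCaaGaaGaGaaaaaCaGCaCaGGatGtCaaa
E2f1: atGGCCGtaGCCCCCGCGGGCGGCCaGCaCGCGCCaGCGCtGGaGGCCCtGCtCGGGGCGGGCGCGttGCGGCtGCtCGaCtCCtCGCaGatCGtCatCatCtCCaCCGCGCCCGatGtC
Pola1: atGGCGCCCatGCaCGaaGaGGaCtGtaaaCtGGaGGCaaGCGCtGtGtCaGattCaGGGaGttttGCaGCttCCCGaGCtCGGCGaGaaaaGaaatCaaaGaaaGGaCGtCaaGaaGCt
Pold1: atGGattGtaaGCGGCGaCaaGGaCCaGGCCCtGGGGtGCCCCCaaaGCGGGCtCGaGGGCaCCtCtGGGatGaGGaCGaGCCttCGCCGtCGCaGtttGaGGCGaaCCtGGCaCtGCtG

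Across the 49 genes the log2 fold change had a Spearman correlation of 0.80 with the GC content of the transcript, against 0.70 over 13043 genes. These points share their libraries and are not independent. After removal of the GC trend, the correlations were 0.084 and −0.028. The offset was fitted to the same GC content over all genes, so the low value there follows from the fit. Ordered by GC content, 14 of the 17 genes from 36.3 to 46.0% GC fell and 0 rose. Over the same range of GC content 2297 of 3361 genes fell and 49 rose. From 46.5 to 50.6% GC, 8 of 16 genes fell and 0 rose, where 705 of 2889 genes of that range fell and 300 rose. From 50.9 to 60.7% GC, 4 of 16 genes rose and 1, Tk1, fell, where 2129 of 5745 genes of that range rose and 258 fell. The median log2 fold change of the genes of the set was below that of all genes in the same range each time. It was −1.42 against −1.19 in the lowest, −0.41 against −0.15 in the middle and 0.13 against 0.42 in the highest.

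**Figure D2:**
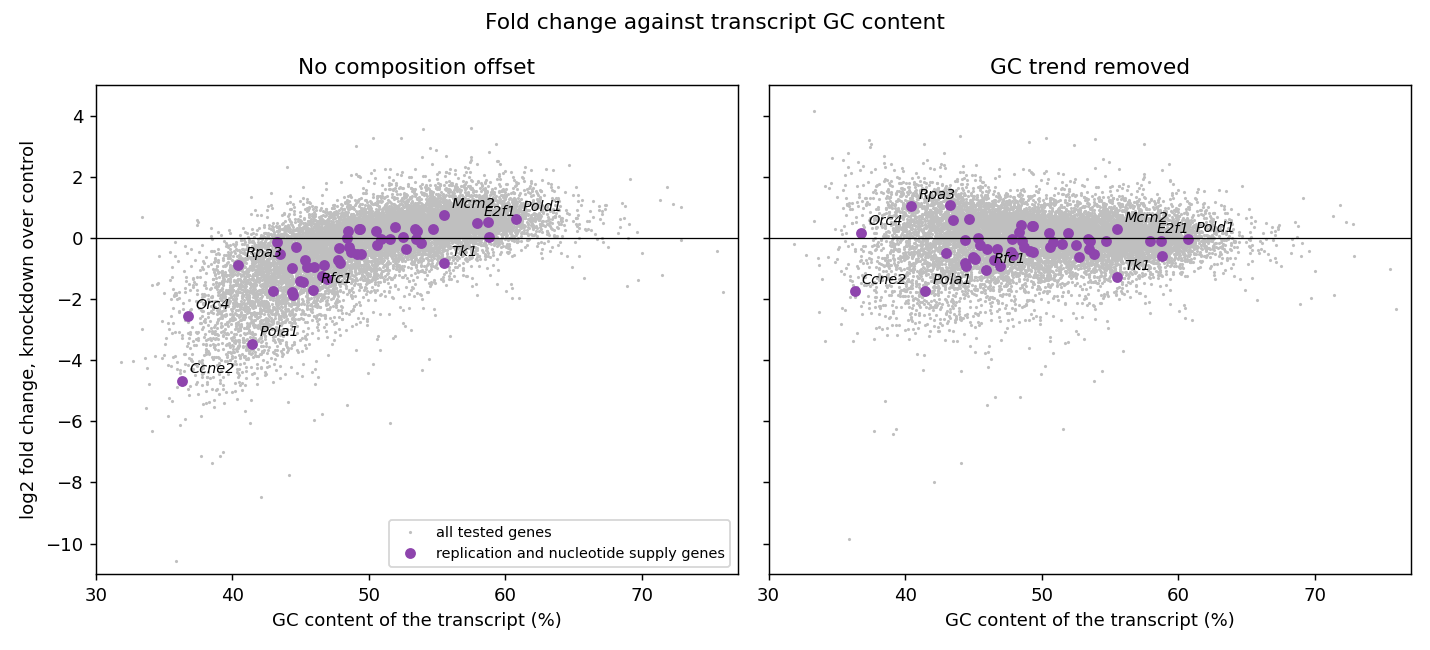
Log2 fold change, knockdown over control, against the GC content of the transcript, for all tested genes (grey) and the 49 replication genes (purple), without a composition offset on the left and with the GC trend removed on the right. On the left the purple points run from Ccne2 at −4.67 to Mcm2 at 0.74 along the grey trend, and on the right Pola1, Ccne2, Tk1 and Rfc1 lie lowest among them.

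Of the 6 origin recognition genes, 5 fell, where 26.8% of all tested genes fell. Their transcripts have 36.8 to 46.7% GC, and 2297 of 3361 genes from 36.3 to 46.0% GC fell. Orc4 (ENSMUSG00000026761.13, chromosome 2), a subunit of the ATPase family, had 18.1, 15.7 and 17.6 CPM in knockdown libraries, against 105, 93.0 and 105 CPM in control libraries. Orc2 (ENSMUSG00000026037.15, chromosome 1), a core subunit, had 12.3, 13.4 and 13.4 CPM in knockdown against 52.6, 36.6 and 43.2 CPM in control libraries. Orc6 (ENSMUSG00000031697.13, chromosome 8), the smallest subunit, had 25.1, 30.01 and 26.9 CPM in knockdown against 66.3, 93.0 and 63.4 CPM in control libraries. For these 3 genes every knockdown library lay below every control library. The fold changes on the log2 scale were −2.56 for Orc4 (SE 0.133, edgeR adjusted p = 2.82e-05), −1.76 for Orc2 (SE 0.167, adjusted p = 0.000263) and −1.44 for Orc6 (SE 0.185, adjusted p = 0.000907). Orc3, another core subunit, was at −1.73 and Orc1, an ATPase subunit, at −0.88, both past the threshold. Orc5 was the exception, with 4.32, 4.90 and 5.57 CPM in knockdown and 6.14, 5.03 and 5.05 CPM in control libraries, which overlap (log2 fold change −0.13, adjusted p = 0.554).

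Once the GC trend was removed, only Orc2 of these 5 genes passed, at −0.81 (edgeR adjusted p = 0.00301). Orc4, whose transcript has 36.8% GC, was then at 0.17, and Orc1, Orc3 and Orc6 were at −0.37, −0.49 and −0.70. Orc5 was called higher with the GC offset, at 1.07 (adjusted p = 0.00341), although its uncorrected levels overlapped between the groups. The offset of Orc4 depended on the transcripts read: with GC content averaged over its coding transcripts, an alternative added after seeing the data, Orc4 was at −0.91 and was called lower. It was called higher, at 0.28 (adjusted p = 0.00367), under the GC offset without control replicate 2.

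**Figure D3:**
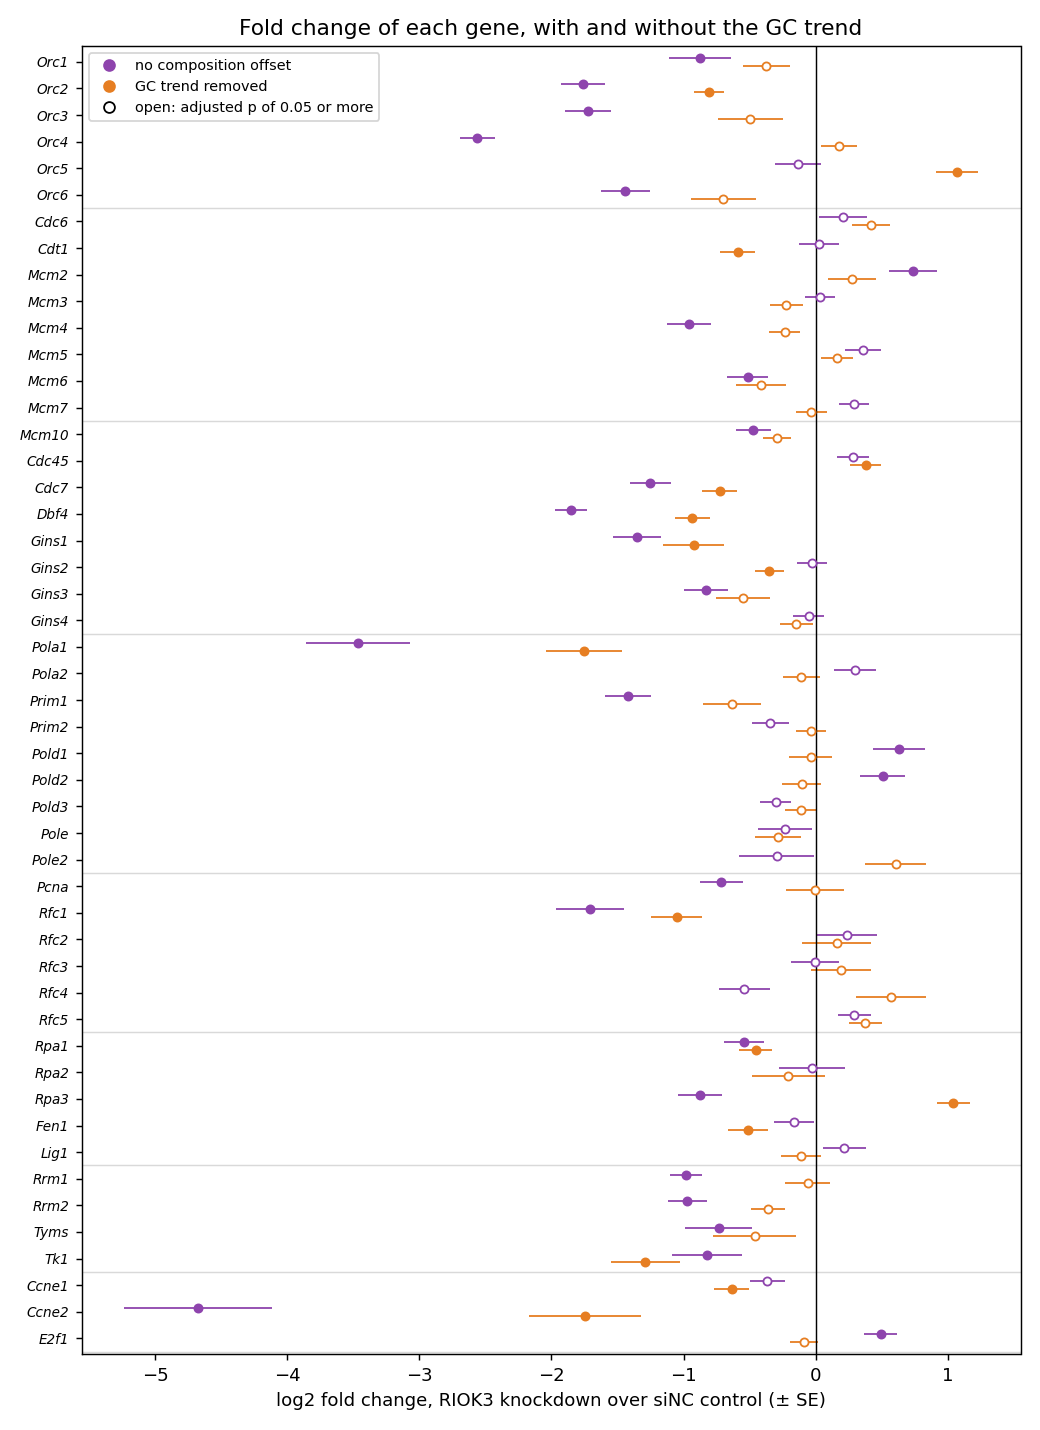
Log2 fold change of each gene, knockdown over control, with its SE as a bar, by role from origin recognition at the top to the G1/S regulators at the bottom. Purple points are without a composition offset and orange points with the GC trend removed, and filled points have an adjusted p under 0.05. Orc4 and Rpa3 are negative in purple and positive in orange, while Pola1 and Ccne2 stay far below 0 in both.

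Helicase loading genes went both ways. Mcm2 (ENSMUSG00000002870.9, chromosome 6) had 486, 490 and 467 CPM in knockdown libraries, against 316, 216 and 334 CPM in control libraries. Mcm4 (ENSMUSG00000022673.6, chromosome 16) had 23.0, 21.0 and 21.9 CPM in knockdown and 48.9, 34.2 and 45 CPM in control libraries. Mcm6 (ENSMUSG00000026355.12, chromosome 1) had 52.7, 53.3 and 55.4 CPM in knockdown and 69.2, 92.6 and 68.9 CPM in control libraries. MCM2 to MCM7 are the 6 subunits of one ring, and of the RNAs of these 3 subunits that of Mcm2 was higher in every knockdown library and those of Mcm4 and Mcm6 lower. Mcm2 rose by 0.74 (SE 0.181, edgeR adjusted p = 0.0136), while Mcm4 was at −0.96 (SE 0.164, adjusted p = 0.00307) and Mcm6 at −0.52 (SE 0.153, adjusted p = 0.0281). Mcm3, the most abundant gene of the set in CPM, averaged 510 ± 15.8 CPM in knockdown and 499 ± 28.3 CPM in control libraries (SD, n = 3 each), which overlap. Mcm5 and Mcm7 were above control in all 3 knockdown libraries without passing, at 0.36 and 0.29. Both passed with library totals alone, with DESeq2 and without control replicate 2.

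The loading factors CDC6 and CDT1 did not pass. Cdc6 averaged 10.8 ± 0.745 CPM in knockdown and 9.32 ± 1.87 CPM in control libraries, at a log2 fold change of 0.21, and of 0.42 with the GC offset. Cdt1, which brings the helicase to the origin, averaged 145 ± 7.16 CPM in knockdown and 143 ± 23.8 CPM in control libraries. With the GC offset Cdt1, at 58.8% GC, was called lower at −0.59 (edgeR adjusted p = 0.0154), and none of Mcm2 to Mcm7 passed, with values from −0.41 for Mcm6 to 0.27 for Mcm2. With GC content averaged over coding transcripts Mcm4 was called higher, at 0.75.

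Among the genes that activate the loaded helicase, the genes of the kinase and of 2 GINS subunits fell, and Cdc45 did not. Dbf4 (ENSMUSG00000002297.17, chromosome 5) had 39.4, 38.2 and 43.0 CPM in knockdown libraries, against 152, 145 and 138 CPM in control libraries. Cdc7 (ENSMUSG00000029283.18, chromosome 5) had 3.82, 3.58 and 3.48 CPM in knockdown and 9.50, 7.73 and 8.69 CPM in control libraries. Gins1 (ENSMUSG00000027454.11, chromosome 2) had 7.90, 8.74 and 7.44 CPM in knockdown and 18.1, 25.3 and 18.1 CPM in control libraries. The groups stand clear of each other for all 3 genes. Dbf4 was at −1.85 (SE 0.121, edgeR adjusted p = 5.28e-05), Cdc7 at −1.25 (SE 0.154, adjusted p = 0.00072) and Gins1 at −1.35 (SE 0.179, adjusted p = 0.00106). Gins3 was at −0.83 and Mcm10, a scaffold of the activated helicase, at −0.47, both past the threshold.

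Gins2 and Gins4, which encode the other 2 subunits of GINS, averaged 95.5 ± 4.26 and 94.3 ± 7.56 CPM in knockdown and 97.3 ± 3.46 and 97.9 ± 3.61 CPM in control libraries. Their libraries overlap. Cdc45 had 20.6, 21.5 and 21.7 CPM in knockdown and 18.5, 17.3 and 16.6 CPM in control libraries. It was higher in all 3 knockdown libraries, at 0.29, without passing (edgeR adjusted p = 0.0894). Under the GC offset Dbf4 was at −0.93, Cdc7 at −0.73, Gins1 at −0.92 and Gins2 at −0.35, all called lower, and Cdc45 was called higher at 0.38 (adjusted p = 0.0477). Gins3, at −0.55, and Mcm10, at −0.29, did not pass with it. With GC content averaged over coding transcripts, Dbf4 was at −0.079 and Cdc7 at −0.36, and neither passed.

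Of the polymerase and primase genes, some fell and others rose. Pola1 (ENSMUSG00000006678.7, chromosome X), the subunit that extends the primer, had 2.92, 3.94 and 4.31 CPM in knockdown libraries, against 53.3, 20.5 and 49.4 CPM in control libraries. Prim1 (ENSMUSG00000025395.15, chromosome 10), the primase subunit that makes the RNA primer, had 14.3, 12 and 13.5 CPM in knockdown and 35.2, 42.0 and 29.2 CPM in control libraries. Both genes were lower in every knockdown library, and control replicate 2 had the lowest control level of Pola1. Pola1 was 11-fold lower, at −3.46 (SE 0.392, edgeR adjusted p = 0.000548), and at −3.78 without control replicate 2. Prim1 was at −1.42 (SE 0.173, adjusted p = 0.000746). Of their partners in the same complex, Pola2 averaged 26.6 ± 2.86 CPM in knockdown and 21.6 ± 3.16 CPM in control libraries, and Prim2 12.8 ± 0.812 CPM in knockdown and 16.2 ± 1.60 CPM in control libraries. Neither passed, at 0.30 and −0.34.

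Pold1 (ENSMUSG00000038644.15, chromosome 7), the catalytic subunit of the lagging-strand polymerase δ, had 23.6, 20.9 and 20.6 CPM in knockdown and 10.9, 17.7 and 13.4 CPM in control libraries. Pold2 (ENSMUSG00000020471.12, chromosome 11), its accessory subunit, had 77.7, 74.8 and 70.3 CPM in knockdown and 43.0, 64.2 and 49.5 CPM in control libraries. All knockdown libraries were above all control libraries for both, with control replicate 2 the closest. Pold1 rose by 0.63 (SE 0.197, edgeR adjusted p = 0.0337) and Pold2 by 0.51 (SE 0.17, adjusted p = 0.0429). Pold3 was at −0.30, and Pole and Pole2 of the leading-strand polymerase ε were at −0.23 and −0.29, none past the threshold. After removal of the GC trend, Pola1 was at −1.75 (adjusted p = 0.00494) and was the only gene of this role that passed. Prim1 was then at −0.64, Prim2 at −0.036, Pold1 at −0.038 and Pold2 at −0.11.

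Of the clamp genes, Pcna and Rfc1 fell. Pcna (ENSMUSG00000027342.15, chromosome 2), the sliding clamp, had 98.5, 103 and 111 CPM in knockdown libraries, against 153, 208 and 152 CPM in control libraries. Rfc1 (ENSMUSG00000029191.17, chromosome 5), the large subunit of the loader that opens the clamp, had 29.1, 29.4 and 26.2 CPM in knockdown and 114, 57.8 and 105 CPM in control libraries. The groups do not overlap for either, and control replicate 2 is the highest control library for Pcna and the lowest for Rfc1. Pcna was at −0.71 (SE 0.161, edgeR adjusted p = 0.00972) and Rfc1 at −1.71 (SE 0.257, adjusted p = 0.00179). The small loader subunits Rfc2 to Rfc5 did not pass, with values from −0.54 for Rfc4 to 0.29 for Rfc5. Once the GC trend was removed, Rfc1 passed at −1.05 and Pcna was at −0.0034, and Rfc2 to Rfc5 were between 0.16 and 0.57 without passing. With adenine content and length also removed Rfc1 was at −0.10 (adjusted p = 0.493). With the GC offset alone and control replicate 2 left out, Rfc2 to Rfc5 were all called higher, at 0.45 to 0.92, and Pcna too, at 0.29. Rfc1 was called lower in that fit, at −1.23.

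Replication protein A (RPA) coats single-stranded DNA. Rpa1 (ENSMUSG00000000751.14, chromosome 11), its large subunit, had 48.8, 46.4 and 50.3 CPM in knockdown libraries, against 69.9, 59.5 and 82.3 CPM in control libraries. Rpa3 (ENSMUSG00000012483.5, chromosome 6), its small subunit, had 13.3, 14.1 and 13.8 CPM in knockdown and 30.6, 21.6 and 23.5 CPM in control libraries. Both were lower in every knockdown library, while Rpa2 averaged 17.3 ± 0.233 CPM in knockdown and 17.6 ± 6.50 CPM in control libraries. Rpa1 was at −0.54 (SE 0.151, edgeR adjusted p = 0.0221) and Rpa3 at −0.88 (SE 0.164, adjusted p = 0.00452). With the GC offset Rpa1 was at −0.45 and passed, and Rpa3, whose transcript of 670 nt has 40.4% GC, was called higher at 1.04 (adjusted p = 0.00141). When adenine content and length were removed too, Rpa1 was at −0.29 and Rpa3 at 0.14, and neither passed. Fen1, the flap nuclease, and Lig1, the ligase, which together join lagging-strand fragments, did not pass, at −0.16 and 0.22. Fen1 was called lower with the GC offset, at −0.51.

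All 4 nucleotide supply genes fell, where 26.8% of all tested genes fell. Rrm1 (ENSMUSG00000030978.11, chromosome 7), the large subunit of ribonucleotide reductase, which makes deoxyribonucleotides, had 147, 147 and 154 CPM in knockdown libraries, against 279, 324 and 279 CPM in control libraries. Rrm2 (ENSMUSG00000020649.12, chromosome 12), its radical-bearing small subunit, had 7.49, 7.18 and 8.85 CPM in knockdown and 16.1, 14.1 and 15.9 CPM in control libraries. The groups stand clear of each other for both subunits. Rrm1 was at −0.98 (SE 0.121, edgeR adjusted p = 0.00072) and Rrm2 at −0.97 (SE 0.146, adjusted p = 0.00168). Thymidylate synthase, Tyms (ENSMUSG00000025747.13, chromosome 5), had 24.5, 21.2 and 20.2 CPM in knockdown and 26.9, 51.8 and 30.9 CPM in control libraries. Thymidine kinase 1, Tk1 (ENSMUSG00000025574.14, chromosome 11), had 8.45, 6.16 and 6.57 CPM in knockdown and 10.6, 17.5 and 9.43 CPM in control libraries. Both were lower in every knockdown library, and control replicate 2 held by far the highest level of each. Tyms was at −0.73 (adjusted p = 0.0491) and Tk1 at −0.82 (adjusted p = 0.0375), and without control replicate 2 they were at −0.40 and −0.51, both past the threshold. Neither passed when knockdown replicate 1, 2 or 3 was left out. Of the 17 alternatives, 5 called Tyms lower and 12 called Tk1 lower. Under the GC offset Tk1, the gene of the 4 with the most GC at 55.5%, passed at −1.29, while Rrm1, Rrm2 and Tyms were at −0.061, −0.36 and −0.46 and did not.

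The G1/S regulators did not move together. Ccne2 (ENSMUSG00000028212.17, chromosome 4) had 0.653, 0.721 and 0.676 CPM in knockdown libraries, against 26.9, 6.43 and 19.2 CPM in control libraries. Its paralog Ccne1 (ENSMUSG00000002068.17, chromosome 7), the gene of cyclin E1, had 9.98, 9.79 and 11 CPM in knockdown and 14.2, 13.2 and 12.2 CPM in control libraries. E2f1 (ENSMUSG00000027490.18, chromosome 2), a transcription factor of S-phase entry, had 53.4, 52.0 and 49.7 CPM in knockdown and 33.5, 39.2 and 37.5 CPM in control libraries. Knockdown libraries were lower for both cyclins and higher for E2f1, with no overlap, and the control libraries of Ccne2 themselves spread widely. Ccne2 was 25.5-fold lower, at −4.67 (SE 0.560, edgeR adjusted p = 0.000688), and at −5.06 without control replicate 2. Ccne1, at −0.37 (adjusted p = 0.0566), did not pass, and E2f1 rose by 0.49 (SE 0.124, adjusted p = 0.0146). After removal of the GC trend, Ccne2 was at −1.74 (adjusted p = 0.0214) and Ccne1 at −0.64 (adjusted p = 0.0114), both called lower, and E2f1 was at −0.091.

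**Figure D4:**
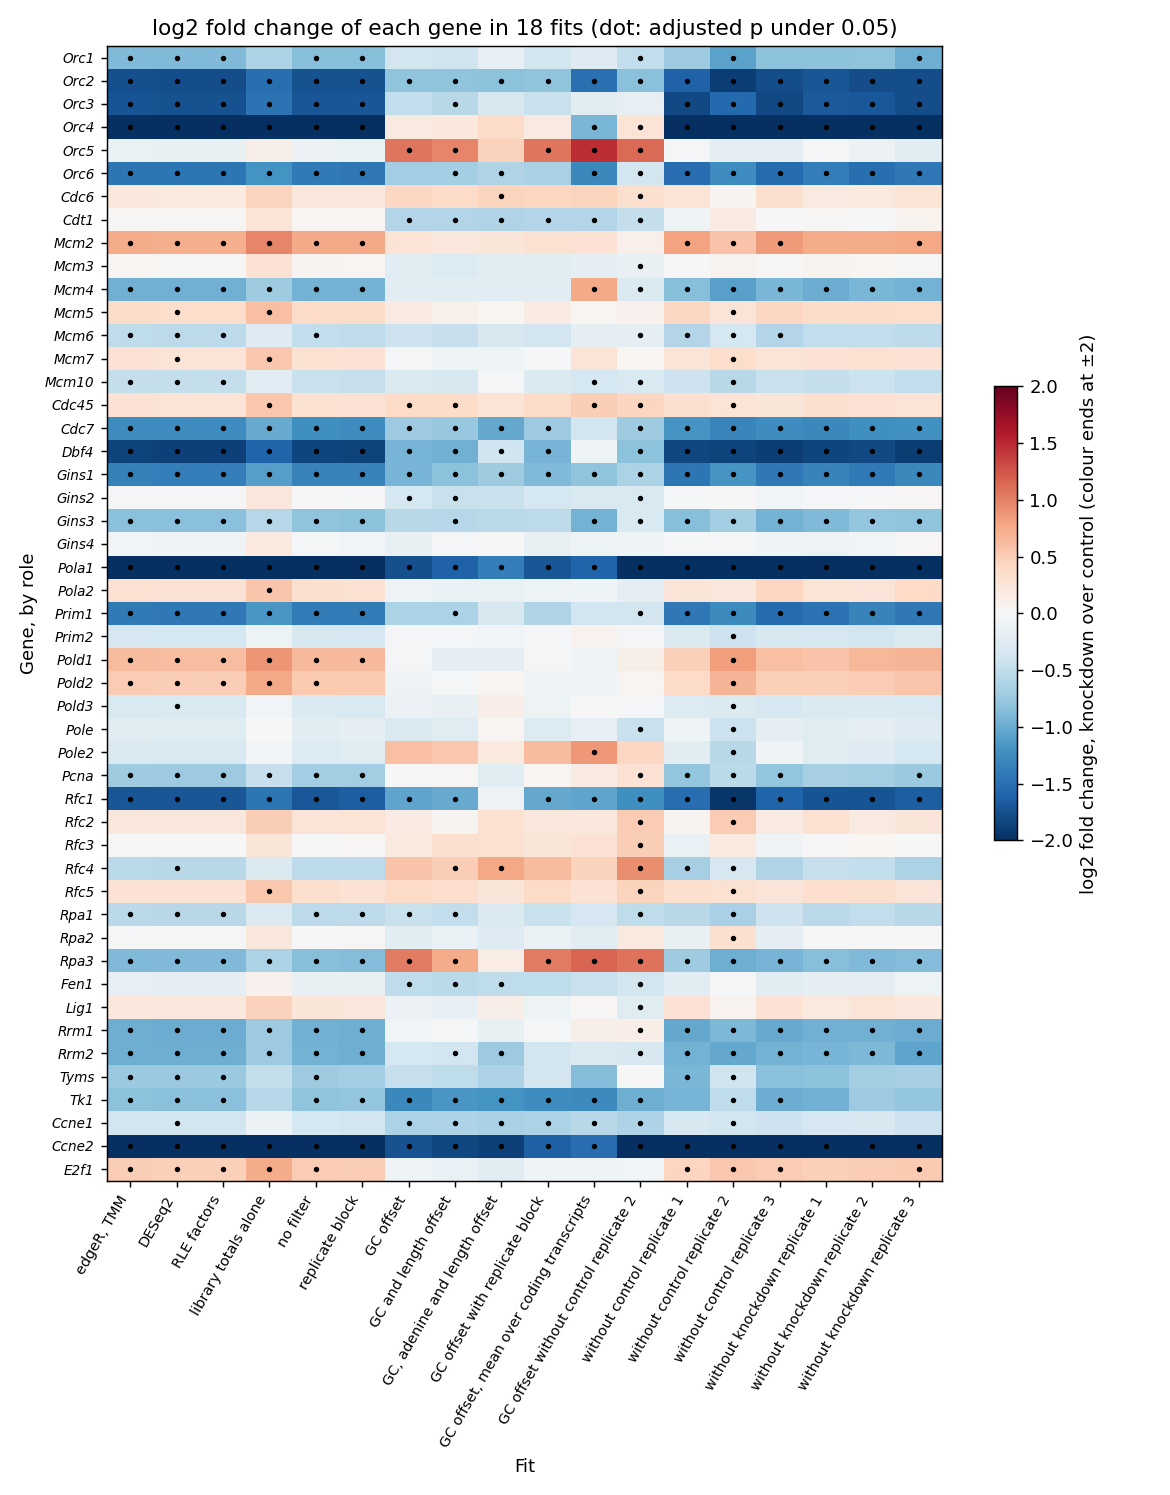
Log2 fold change of each gene (rows, by role) in the fit without an offset and in 17 alternative settings (columns), blue where knockdown is lower and red where it is higher, with the colour ending at ±2 and a dot where the adjusted p was under 0.05. The rows of Orc2, Gins1, Pola1 and Ccne2 are blue with a dot in every column, while Rpa3 and Orc5 turn red in the columns with a GC offset.

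Levels between subunits of a complex were compared in the authors' FPKM. Its gene lengths are not the transcript lengths used here. Mcm2 and Mcm4, with transcripts of 3371 and 3589 nt, had 15647 and 740 counts but 74.1 and 6.79 FPKM in knockdown replicate 1. The ranking and shares of subunits therefore rest on lengths that were not checked. FPKM values are also scaled by library totals, so shares within a complex are given. That scaling puts the all-gene median log2 fold change at 0.26 where TMM put it at 0.014. The FPKM of Mcm2 to Mcm7 summed to 315 ± 5.83 in knockdown and 230 ± 9.46 in control libraries (SD, n = 3 each). Mcm3 held 46.1 ± 0.882% of that sum in knockdown and 51.1 ± 3.36% in control libraries, and Mcm4, the lowest subunit, 2.08 ± 0.118% in knockdown and 4.57 ± 0.785% in control libraries. The share of Mcm2 was 24.0, 23.7 and 22.6% in knockdown replicates 1, 2 and 3 and 17.6, 12.1 and 18% in control replicates 1, 2 and 3, with no overlap. The highest subunit was thus 22.2 times the lowest in knockdown and 11.2 times in control libraries.

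Within the origin recognition complex the FPKM sum was 22.4 ± 1.32 in knockdown and 57.9 ± 3.59 in control libraries. Orc6 held the largest share in both groups, 52.7 ± 2.64% in knockdown and 45.5 ± 6.34% in control libraries, and the share of Orc4 was 11 ± 1.33% in knockdown and 20.8 ± 2.98% in control libraries. GINS RNA was uneven in both groups, with Gins4 at 68.3 ± 0.865% in knockdown and 62.3 ± 2.04% in control libraries and Gins1 at 5.18 ± 0.332% in knockdown and 11.6 ± 1.73% in control libraries. In the clamp loader Rfc1 held 15.8 ± 1.66% in knockdown and 35.2 ± 12% in control libraries. The proportions of the ribonucleotide reductase subunits overlapped between the groups, with Rrm1 at 82.8 ± 1.23% of the FPKM of both subunits in knockdown and 82.7 ± 2.19% in control libraries. The transcripts of Rrm1 and Rrm2 have 44.4 and 46.0% GC, those of Mcm2 and Mcm4 55.5 and 45.5%, and the part of composition in these shares was not tested.

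**Figure D5:**
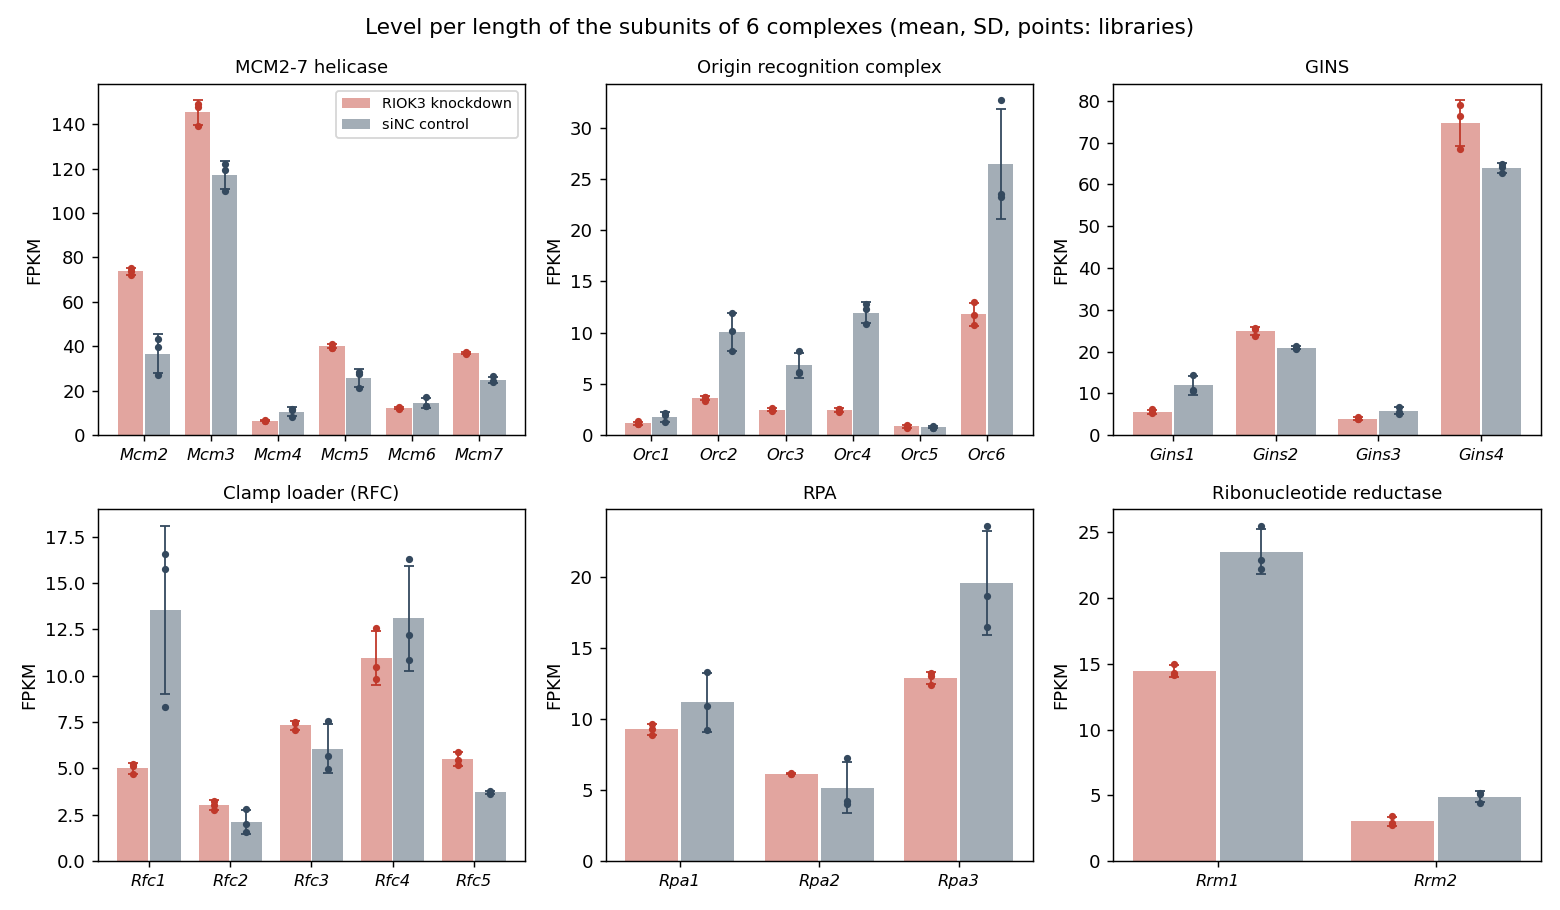
FPKM of the subunits of 6 complexes, as mean and SD of 3 libraries per group with a point for each library, knockdown bars to the left of control bars. In the MCM2-7 panel Mcm2 is higher and Mcm4 lower in knockdown libraries, in the origin recognition panel all subunits but Orc5 have lower means in knockdown libraries, and both subunits of ribonucleotide reductase are lower by a like proportion.

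Promoters of the set were searched for E2F motifs, since E2F factors bind many replication genes. RefSeq promoters of GRCm38.p6, reaching 250 bases before and 50 after the gene start, were matched by symbol for 41 of the 49 genes. The motifs were TTTGGCGC, TTTCCCGC, TTTGCCGC and TTTCGCGC on either strand, overlapping matches included. At least 1 was found in 15 of the 41 promoters (36.6%), against 704 of 27025 promoters of all genes (2.60%) and 471 of 9679 promoters of tested genes (4.87%). Of the 15 genes with a match, 5 fell, 1 rose and 9 did not pass, and of the 26 without one, 15 fell and 3 rose. Among all tested genes 26.8% fell and 21.1% rose, and a link between motif and fold change was not tested. The 150 bases before the gene start are shown for the 4 genes with a match that had the smallest p, with the motif in capitals, 5′ to 3′ in the direction of the gene. They lie at chr4:34614943-34615092 on the minus strand for Orc3, chrX:93632156-93632305 on the minus strand for Pola1, chr8:95633409-95633558 on the plus strand for Gins3 and chr4:108579304-108579453 on the plus strand for Orc1. The motif's first base is 41 bases before the gene start in Orc3 and in Gins3, 138 in Pola1 and 27 in Orc1.
Orc3: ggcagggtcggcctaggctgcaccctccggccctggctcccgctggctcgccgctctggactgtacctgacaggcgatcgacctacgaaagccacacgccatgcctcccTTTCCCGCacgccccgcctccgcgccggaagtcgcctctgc
Pola1: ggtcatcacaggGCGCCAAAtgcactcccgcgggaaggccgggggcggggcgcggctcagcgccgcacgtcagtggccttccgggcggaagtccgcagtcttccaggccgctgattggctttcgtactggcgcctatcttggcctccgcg
Gins3: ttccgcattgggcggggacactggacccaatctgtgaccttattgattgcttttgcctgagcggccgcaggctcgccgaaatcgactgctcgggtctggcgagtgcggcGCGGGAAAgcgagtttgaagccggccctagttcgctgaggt
Orc1: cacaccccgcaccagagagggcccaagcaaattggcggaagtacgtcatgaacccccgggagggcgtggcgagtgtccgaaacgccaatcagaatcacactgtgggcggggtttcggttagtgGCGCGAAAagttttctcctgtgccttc

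The promoters shown have 59.3 to 71.3% GC, whereas the transcripts of the same 4 genes have 41.5 to 47.9%. Outside the set, of 73 tested genes of the accessory replisome, nucleotide metabolism and the E2F and RB families, 24 fell and 6 rose (median log2 fold change −0.26). Over all tested genes 26.8% fell and 21.1% rose. Once the GC trend was removed, 13 of 72 were called lower and 8 higher, where 15.2% and 16.4% of all genes were. Mcm8, a relative of the helicase subunits that acts in repair, had 6.59, 7.45 and 5.89 CPM in knockdown libraries, against 31.7, 30.6 and 26.7 CPM in control libraries (log2 fold change −2.16, edgeR adjusted p = 7.34e-05), and was at −1.50 with the GC offset, again called lower. Ccna2, the S-phase cyclin A2, was at −0.96, past the threshold, and at −0.38 (adjusted p = 0.057) with the GC offset, which did not pass. Chtf8, of the loader that places the clamp for sister chromatid cohesion, had 43.9, 47.4 and 43.8 CPM in knockdown and 19.5, 17.5 and 21.0 CPM in control libraries. It rose by 1.22 (SE 0.131, adjusted p = 0.0004) and was called higher in all 17 alternatives.

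Mitosis genes were set beside the replication genes, since both are expressed in cycling cells. Of 38 tested, 23 fell and 1 rose, where 26.8% of all tested genes fell and 21.1% rose. Their median log2 fold change of −0.95 stands beside −0.37 for the 49 replication genes, a difference that was not tested. With the GC offset 20 were called lower and 2 higher, where 15.2% and 16.4% of all genes were. Mki67, which encodes the proliferation marker Ki-67, had 16.6, 15.8 and 18 CPM in knockdown libraries, against 1109, 602 and 1008 CPM in control libraries. Its log2 fold change was −5.75, and −5.21 with the GC offset. Ndc80, Ttk and Bub1, of the kinetochore and the spindle checkpoint, were at −3.59, −3.77 and −3.65, and all 4 were called lower in every one of the 17 alternatives.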

How the data were processed

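A stranded mRNA kit was fed 2 μg of total RNA, per the labels' protocols, and its PCR products of 200 to 500 bp were read from both ends for 150 bases. The submitters' processing notes name HISAT2, MultiQC and GRCm39 without versions. The counting tool, strand setting and annotation release were not given in the sources used here. Raw counts of 22030 genes and FPKM values of 21879 genes were deposited by the authors. FPKM, which the authors scaled by library total and by a gene length unlike the transcript lengths used here, was used only for levels and shares within complexes.

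The deposited counts of all 6 libraries went into edgeR 4.0.16 under R 4.3.3 (filterByExpr, TMM factors of 1.08, 1.09 and 1.10 in knockdown and 0.915, 0.895 and 0.942 in control libraries, glmQLFit with robust estimation, glmQLFTest, two-sided). Benjamini-Hochberg adjustment ran over 13067 genes, and the threshold was 0.05. The fits were first run on simulated counts with the same dispersion for every gene and no GC trend. That run cannot tell how the test behaves under the GC trend of these data. The SE is the log2 fold change divided by the square root of F.

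For the GC offset, a loess curve (span 0.3, degree 1) of each library's log2 CPM (prior count 2, minus the gene's mean) on transcript GC content was entered as an offset. GC content came from the coding transcript with the longest coding part in GENCODE M21 (GRCm38), an earlier build than that of the counts, matched by gene identifier for 13043 tested genes (99.8%).

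Alternatives were DESeq2 1.42.0, other scalings, no filter, other offsets, a replicate block and leaving out each library. The 49 genes, the gene lists and the GC offset were chosen with earlier results of these data known. All 49 genes were to be described, and of the other pathway genes and of the mitosis genes the 4 with the smallest p, beside Riok3 and Mki67.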

Additional observations from a re-analysis of the deposited data

How the results depend on the processing

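The calls of Orc2, Gins1, Pola1 and Ccne2 held under all 17 alternatives, and those of Cdc7, Dbf4 and Rfc1 under 16. How many of all tested genes held as often was not counted. RLE factors changed no call and no direction among the 49 genes. DESeq2 called 6 of them higher and 26 lower, where it called 23.3% of all genes higher and 29.1% lower, with no direction turned. Riok3 was called lower under all 17, at −2.32 to −0.89. Of 833 single-gene values under alternatives, 568 kept direction and call, 115 kept direction and lost the call, 44 gained one and 106 turned. Deviations of same-numbered libraries had correlations of −0.076, 0.044 and 0.052. Deviations within a group are tied to each other through its mean, so these values cannot tell whether same-numbered libraries were prepared together. The replicate block called 20 of the 49 genes lower, against 24.7% of all genes. Below, most counts that moved little from the fit without an offset are left out. With library totals alone, 9 of the 49 genes were called higher and 17 lower. Of all genes 4280 were called higher and 2814 lower, and 3 mitosis genes were called higher. The median of the 49 genes was −0.12. Log2 fold changes of the other sign were Orc5 0.12, Gins2 0.22, Gins4 0.20, Pole 0.011, Rfc3 0.25, Rpa2 0.23 and Fen1 0.090. Without the filter, Rfc3 turned to 0.015. With the replicate number as a block, 2 of the 49 genes were higher, against 18.3% of all genes. Turned log2 fold changes were Rfc3 0.019 and Rpa2 0.030. With the GC offset, counts were 13 of the 49 genes lower, 1988 of all genes lower, 13 of the other replication genes lower and 2 mitosis genes higher and the median of the 49 genes was −0.22. Of all genes 16.4% were called higher with it. The sign of the log2 fold change differed for Orc4 0.17, Orc5 1.07, Cdt1 −0.59, Mcm3 −0.22, Mcm7 −0.034, Pola2 −0.11, Pold1 −0.038, Pold2 −0.11, Pole2 0.61, Rfc3 0.19, Rfc4 0.57, Rpa3 1.04, Lig1 −0.11 and E2f1 −0.091. With GC content and length removed, counts were 10 of the other replication genes higher and 3 mitosis genes higher and the median of the 49 genes was −0.23. In that fit 21.5% of all genes were called higher. Log2 fold changes of the other sign were Orc4 0.22, Orc5 0.98, Cdt1 −0.58, Mcm3 −0.28, Mcm7 −0.096, Pola2 −0.14, Pold1 −0.19, Pold2 −0.023, Pole2 0.54, Pcna 0.016, Rfc3 0.31, Rfc4 0.50, Rpa3 0.74, Lig1 −0.17 and E2f1 −0.13. With GC content, adenine content and length removed, counts were 2 of the 49 genes higher, 12 of the 49 genes lower, 2085 of all genes lower and 3 mitosis genes higher and the median of the 49 genes was −0.18. There 18.4% of all genes were called higher. Turned log2 fold changes were Orc4 0.38, Orc5 0.45, Cdt1 −0.60, Mcm3 −0.21, Mcm7 −0.079, Gins4 0.010, Pola2 −0.13, Pold1 −0.18, Pold3 0.14, Pole 0.039, Pole2 0.20, Rfc3 0.31, Rfc4 0.77, Rpa3 0.14 and E2f1 −0.23. With the GC offset and the replicate block, counts were 2 of the 49 genes higher, 10 of the 49 genes lower, 1565 of all genes higher, 1537 of all genes lower, 10 of the other replication genes lower and 2 mitosis genes higher and the median of the 49 genes was −0.22. The sign of the log2 fold change differed for Orc4 0.18, Orc5 1.07, Cdt1 −0.58, Mcm3 −0.22, Mcm7 −0.030, Pola2 −0.10, Pold1 −0.024, Pold2 −0.092, Pole2 0.64, Pcna 0.043, Rfc3 0.24, Rfc4 0.63, Rpa3 1.05, Lig1 −0.098 and E2f1 −0.090. With GC content averaged over coding transcripts, counts were 12 of the 49 genes lower, 1981 of all genes lower, 15 of the other replication genes lower and 2 mitosis genes higher and the median of the 49 genes was −0.16. Of all genes 16.8% were called higher there. Log2 fold changes of the other sign were Orc5 1.47, Cdt1 −0.59, Mcm3 −0.17, Mcm4 0.75, Pola2 −0.080, Prim2 0.065, Pold1 −0.085, Pold2 −0.083, Pole2 0.87, Pcna 0.16, Rfc3 0.29, Rfc4 0.46, Rpa3 1.17, Rrm1 0.12 and E2f1 −0.094. With the GC offset and without control replicate 2, 11 of the 49 genes were called higher and 24 lower. Of 13372 genes, 4501 were called higher and 3728 lower. Of the other replication genes 15 were called higher and 33 lower, and of the mitosis genes 4 higher and 28 lower. The median of the 49 genes was −0.16. Turned log2 fold changes were Orc4 0.28, Orc5 1.14, Cdt1 −0.48, Mcm3 −0.15, Pola2 −0.17, Pole2 0.42, Pcna 0.29, Rfc3 0.49, Rfc4 0.92, Rpa2 0.19, Rpa3 1.09, Lig1 −0.24, Rrm1 0.13 and E2f1 −0.058. Leaving out 1 library at a time gave 0 to 10 of the 49 genes higher, 1647 to 4701 of all genes higher, 3 to 10 other replication genes higher, 19 to 38 lower, 0 to 3 mitosis genes higher and a median of −0.41 to −0.31. Of all genes 20.1 to 36.5% were called lower in these fits. Over the same fits log2 fold changes ran from −0.082 to 0.16 for Cdt1, −0.0090 to 0.078 for Mcm3, −0.049 to 0.019 for Gins2, −0.095 to 0.019 for Gins4, −0.13 to 0.20 for Rfc3 and −0.20 to 0.32 for Rpa2. Leaving out control replicate 2 gave the most calls. The causes of these differences were not tested. Depth limits few of the values, since Ccne2, with 21 counts in the lowest library, was the only gene of the set under 1 CPM in a group.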
